A study of Mus musculus with 4 samples.

Results

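The m6A peaks described here lie at the 5′ end of the transcript, where the annotated 5′-UTR meets the transcription start. A peak was taken when its deposited annotation was a 5′-UTR and its deposited distance from the annotated start was at most 300 bases. By this rule, 3843 of the 33556 peaks of the CCI list (11.5%, 95% Wilson interval 11.1 to 11.8%) and 4374 of the 34406 peaks of the sham list (12.7%, 12.4 to 13.1%) were start peaks, 8217 of 67962 rows in both lists. They lay in 3271 genes in CCI and 3723 genes in sham. They made up 77.9% of the 5′-UTR peaks of the CCI list and 79.2% of those of the sham list.

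The peaks came from MeRIP-seq of mouse spinal cord, in which fragments of poly(A) RNA are captured with an antibody against m6A (the IP library) and compared with uncaptured RNA of the same sample (the input library). All animals were C57BL/6J mice aged 6 to 8 weeks, and tissue was taken on day 7. In the CCI group (chronic constriction injury, a model of neuropathic pain) the sciatic nerve was loosely tied with silk, and in the sham group the nerve was handled in the same way without a ligature. Each group had 1 IP and 1 input library, so no difference between the lists has a replicate check, no p-value between groups was computed, and the intervals cover counting error only. The number of mice behind a library is not given in the sources used here. The measure used throughout is the fold enrichment that the authors gave each peak, the ratio of IP to input, and the depth behind it is unknown because the tables hold no read counts. In whole spinal cord, fewer cells of a type and less RNA per cell cannot be told apart.

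m6A is a methyl mark on internal adenosines of mRNA, written mostly by the METTL3 and METTL14 complex at a core of GGAC or similar letters, and it is best known around stop codons and in 3′-UTRs. At the other end of the transcript a related mark exists. When the first base after the cap is an adenosine, PCIF1 can methylate it to m6Am, and antibodies against m6A bind this cap-adjacent mark as well. A start peak can therefore hold m6A in the 5′-UTR, m6Am at the cap, or both, and MeRIP-seq does not separate them. m6A in the 5′-UTR is known for its part in cap-independent translation. Messages of ribosomal proteins begin with a cytidine followed by pyrimidines, so their first base is not an adenosine.

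The first transcribed base decides whether m6Am is possible at the cap. As a stand-in, the base at the annotated start was read from the RefSeq table of mouse promoters (GRCm38.p6). Where transcription began in this tissue was not measured, so the base describes the annotation and does not settle whether a transcript can carry m6Am. The lines below give 10 bases before and 20 bases from the start, 5′ to 3′ on the strand of the gene, for members whose annotated start was the RefSeq start and lay inside the peak. They were chosen from the genes named below, except *Clstn1*, which was among the most enriched pairs with identical borders (232 in CCI and 386 in sham). The base at the annotated start and any GGAC are in capitals.
Hcn2: gcggcggcggCcgctccgctccgcactgcc
Slc6a11: gcggcggcgcAgagccggggccggcgcacg
Clstn1: gagagagagcGccgccgccatcttagccgc
Sdc3: gcggcggcggCggcgacgcttcctgcgggc
Shisa7: ccagccccgcGggctggcagacacgcgctc
Mapk9: atccgtcagaCtgagcgccgcggcggcggc
Ahcyl2: gggaggagtgGgggtatgggggagggaagg
Hnrnpd: cttccgtcggCcattttaggtggtccgcgg
Atf5: ggagggatccAggcaagcccgcgctgcgcc
Syn1: gcgctgcctcAgtctgcagcgggcagcaga
Eif4e2: ctcgccagccAaccggaagtagccgggccc
Psmc6: tcccggcatcCcctatgagcgacggcttct
Cldn11: ggagtttaaaGagggggcggGGACgcgctg

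The annotated starts of *Slc6a11*, *Atf5*, *Syn1* and *Eif4e2* have A, and the other starts shown have C or G. The *Hcn2* window is at chr10:79716624-79716653 on the + strand, *Slc6a11* at chr6:114131231-114131260 (+), *Sdc3* at chr4:130792527-130792556 (+), *Mapk9* at chr11:49846741-49846770 (+) and *Atf5* at chr7:44816639-44816668 (−). In *Cldn11* (chr3:31149910-31149939, +) a GGAC stands 11 bases into the transcript, and it is the only one of these windows that holds the letters. The 2 strongest of these peaks by the geometric mean of both lists, *Hcn2* and *Slc6a11*, had no GGAC in their first 50 bases, of which 82.0% and 78.0% were G or C. *Eif4e2* and *Psmc6* had a GGAC 30 bases into the transcript, past the bases shown.

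A RefSeq start on the same strand and chromosome was found for 2964 start peaks of the CCI list (77.1%) and 3368 of the sham list (77.0%). The nearest one was taken, with no limit on distance, and the sequence of the peak itself was not read. It was exactly the annotated start in 26.1% of these CCI members and 26.8% of the sham members, and it lay within 50 bases in 55.4% and 56.4%. The span of the peak held it in only 1247 and 1438, so many of the bases below lie outside the peaks. The first base was A in 29.8% of the CCI members (28.2 to 31.5%) and 28.9% of the sham members (27.4 to 30.4%). Genes with a peak but no start peak had A at 28.6% (27.7 to 29.6%) and 28.8% (27.9 to 29.8%) of their starts, and all 32851 RefSeq starts had 34.4% (33.8 to 34.9%). The intervals of start peaks and of other methylated genes overlapped in both lists, and both lay below that of all starts. G was the commonest first base of the members, at 47.1% in CCI and 47.5% in sham, against 35.6% of all RefSeq starts.

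The starts matched to strong start peaks began with A no more often than those matched to weak ones. Among members at or above the median fold enrichment of their list, the share of A was 28.2% in both lists, against 31.4% below the median in CCI (29.1 to 33.8%) and 29.6% in sham (27.4 to 31.8%). When only members whose annotated start was exactly the RefSeq start were taken, the share was 31.4% of 774 in CCI (28.2 to 34.7%) and 28.9% of 902 in sham (26.1 to 32.0%). Where the span of the peak held the matched start, it was 31.4% of 1247 in CCI (28.9 to 34.1%) and 30.3% of 1438 in sham (28.0 to 32.7%). In these subsets the CCI intervals overlapped that of all RefSeq starts (33.8 to 34.9%), whereas the sham intervals lay below it. A first base of C was found in 17.1% of the CCI members at or above the median (15.3 to 19.1%) and 13.2% of those below (11.5 to 15.0%), and in sham these shares were 16.7% (15.0 to 18.6%) and 14.1% (12.5 to 15.8%), with overlapping intervals.

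The letters GGAC were in the first 50 transcribed bases of 19.2% of the CCI members (17.8 to 20.6%) and 19.9% of the sham members (18.6 to 21.3%), beside 18.9% of all RefSeq starts (18.4 to 19.3%). Their reverse complement GTCC, which is the same motif on the other strand, was there in 18.8% and 19.7% of the members and 17.4% of all starts. Where the span of the peak held the matched start, GGAC was in the first 50 bases of 21.3% in CCI (19.1 to 23.7%) and 21.7% in sham (19.6 to 23.9%). Over the whole window, which also holds 250 bases before the start, GGAC was in 69.8% of the CCI members and 70.5% of the sham members, against 65.6% of all windows. Genes with a peak but no start peak had 71.5% and 71.3%. The first 50 bases of the starts matched to start peaks were richer in G and C, with a median of 68.0% in both lists. This median was 64.0% for genes with a peak but no start peak and 56.0% for all RefSeq starts. Where the span of the peak held the matched start, it was 66.0% in CCI and 68.0% in sham. Among the members it was 70.0% at or above the median fold enrichment and 66.0% below it, in each list.

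The name of the class was checked against the borders of the peaks. An exonic block of the peak covered the annotated start in 75.2% of the CCI members (73.8 to 76.6%) and 74.6% of the sham members (73.3 to 75.9%). In 1027 CCI and 1171 sham members (26.7% and 26.8%) the peak began exactly at that start, and in 48.5% and 47.9% it ran over it. In 21.8% and 22.5% the nearest block lay beside the start but within 300 bases, and in 3.02% and 2.88% the start fell only in a gap between blocks farther away. Peaks that began exactly at the start had the highest median fold enrichment of these kinds, 12.3 in CCI and 12.4 in sham, against 8.34 and 8.13 for peaks beside it.

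The annotated start was often not the outermost start of the gene. Of the 3697 CCI and 4199 sham members whose gene name is a RefSeq symbol on that chromosome, 59.9% and 60.6% had a start within 300 bases of the outer end of the gene. In 37.8% and 37.0% the start lay farther downstream, at an internal start. The median fold enrichment was 10.1 in CCI and 10.5 in sham at outer starts, against 8.86 and 8.91 at downstream starts.

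By their median, start peaks were the most enriched class of both lists. The median fold enrichment was 9.64 in CCI (middle 50% of peaks from 4.47 to 20.0) and 9.73 in sham (4.45 to 20.9). It was 5.66 and 5.35 for 5′-UTR peaks farther from the start, 5.92 and 5.81 for 3′-UTR peaks and 4.69 and 4.78 for exon peaks. A fold enrichment of at least 10 was reached by 48.2% of the start peaks in CCI (46.7 to 49.8%) and 49.2% in sham (47.7 to 50.6%), against 28.2% of all other peaks in each list.

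**Figure D1:**
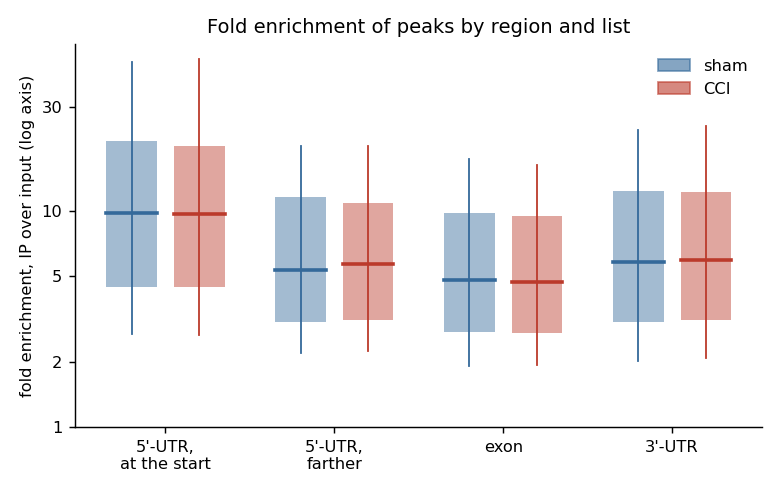
Fold enrichment of IP over input (log axis) for the peaks of the sham and CCI lists by region, with the median as a line, the middle 50% of peaks as a box and the 10th to 90th percentile as a thin line. The 5′-UTR peaks at the start have medians of 9.73 (sham) and 9.64 (CCI), above the medians of the other classes in either list.

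The authors' p-value of IP against input ranked the classes in another order. The median log10 p of start peaks was -13.9 in CCI and -14.2 in sham, whereas that of 3′-UTR peaks was -22.4 and -26.6. Start peaks were thus more enriched but less significant than 3′-UTR peaks in the authors' test. Their blocks added up to a median of 210 bp (CCI) and 211 bp (sham), beside 240 and 241 bp for 3′-UTR peaks. They were spliced (more than 1 block) in 38.5% and 39.8%, against 22.8% and 23.1% of all other peaks.

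Fold enrichment was highest close to the start. Peaks whose span touched the start had a median of 10 in CCI (3055 peaks) and 10.2 in sham (3450 peaks), and peaks 1 to 50 bases away had 10.4 and 11.6. At 101 to 150 bases the medians were 6.78 and 6.97. Just inside the limit, at 251 to 300 bases, the median was 6.37 in CCI (73 peaks) and 6.84 in sham (91 peaks), and just outside, at 301 to 350 bases, it was 7.04 (47 peaks) and 5.29 (40 peaks). The limit of 300 therefore did not mark a step in these values.

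**Figure D2:**
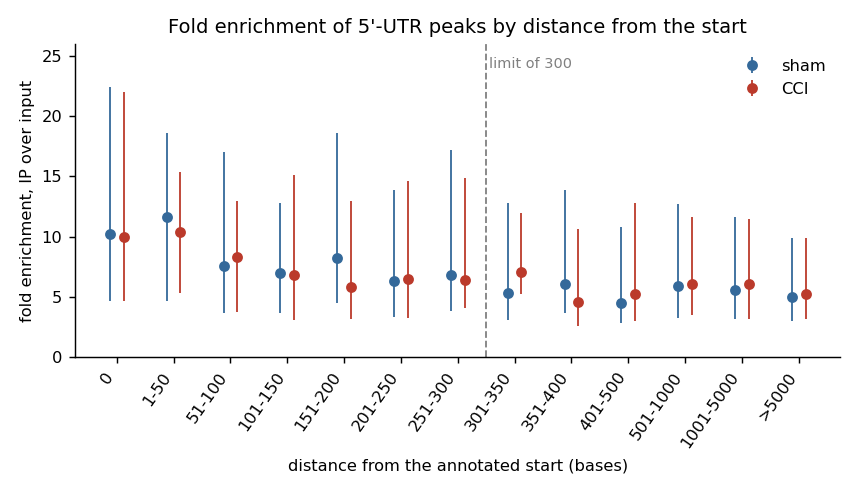
Fold enrichment of all 5′-UTR peaks by distance from the annotated start in bases, for the sham and CCI lists. Points are medians, bars the middle 50% of peaks, and the dashed line is the limit of 300. The medians at 0 and at 1 to 50 bases (10 to 11.6) lie above those of every bin beyond 50 bases.

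Within a gene, the start peak was more often above the 3′-UTR than below it. Of the 2438 CCI genes with peaks of both kinds, 54.1% (52.2 to 56.1%) had a higher value in the strongest start peak than in the strongest 3′-UTR peak, with a median log2 ratio of 0.23 (middle 50% of genes from -1.26 to 1.66). In sham this was 54.6% of 2734 genes (52.8 to 56.5%), with a median of 0.24. The start peak was the only peak of 544 CCI genes (16.6%) and 646 sham genes (17.4%). More than 1 start peak was listed for 485 genes in CCI and 545 in sham, with at most 6.

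A few start peaks stood far above the rest. The 8 pairs with the highest geometric mean of both lists, among the 1631 pairs whose log10 p was at or below the median of the start peaks in both lists, ran up to *Celf4*, a neuronal RNA-binding protein. Its fold enrichment was 5410 in CCI and 2020 in sham over nearly the same bases (chr18:25753439-25754157 in CCI, GRCm38). *Tnk2*, a non-receptor tyrosine kinase, had 1250 in CCI and 2020 in sham (chr16:32643874-32644951), with the same borders in both lists. The peaks of these genes that were not start peaks were weaker. They reached 9.12 in CCI and 6.14 in sham for *Celf4* and 21.6 and 23.3 for *Tnk2*.

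*Hcn2*, a channel of the hyperpolarisation-activated current of neurons, had 670 in CCI and 820 in sham (chr10:79716634-79716962). *Dlg4*, which encodes the postsynaptic scaffold PSD-95, had 673 and 799. *Slc6a11*, the GABA transporter GAT3 of astrocytes, had 872 in CCI and 294 in sham over the same 240 bp, beginning at its start (chr6:114131241 in the RefSeq table). Its peaks that were not start peaks reached 4.05 and 2.04. *Aes*, a small member of the Groucho family of corepressors, had 599 and 984. The remaining 2 of the 8 were named for *1600020E01Rik* (1040 and 469), whose block also lay over *Pcbp1*, and *6030419C18Rik* (468 and 763), whose block also lay over *Insyn1*. Whether strand was used in peak calling is not stated, so which of the overlapping genes gave the signal is not known. The CCI peak was higher in *Celf4*, *Slc6a11* and *1600020E01Rik* and the sham peak in the other genes of this set.

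A partner is a peak of the other list that shares at least 1 exonic base. Of the CCI start peaks, 89.8% (88.8 to 90.7%) had a partner in sham, and 81.0% of the sham start peaks (79.8 to 82.1%) had one in the CCI list. The peaks with no partner numbered 392 in CCI (over all CCI peaks, 12.3% had none) and 832 in sham (over all sham peaks, 16.1%). The share of CCI start peaks with a partner was near that of 3′-UTR peaks (89.3%), but among sham peaks it was lower than that of 3′-UTR peaks (88.1%) and near that of exon peaks (79.5%). Start peaks with no partner were weak, with a median fold enrichment of 5.30 in CCI and 6.39 in sham and a median log10 p of -3.88 and -4.21. Those with a partner had medians of 10.3 and 10.6.

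Counted by gene, 2850 genes had a start peak in both lists, 87.1% of the CCI genes and 76.6% of the sham genes. Another 421 genes had one in the CCI list only (12.9% of the CCI genes) and 873 in the sham list only (23.4% of the sham genes). By the same count, 5.84% and 8.39% of the genes with a 3′-UTR peak, 15.4% and 17.8% of those with an exon peak and 5.23% and 8.92% of those with any peak had none of the kind in the other list. Of the 873, 696 still had a CCI peak of another class, and of the 421, 339 had a sham peak of another class.

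Among the CCI start peaks without a partner, the 4 with the smallest log10 p were in *Ythdc1*, *Bscl2*, *Psmc6* and *Actr8*. *Ythdc1*, the nuclear reader of m6A, had 8.97 over a span of chr5:86768468-86816582 whose blocks lay 11408 bases from the annotated start, and it also had a paired start peak (22.6 in CCI and 25.9 in sham). *Bscl2*, the lipid droplet protein seipin, had 4.27. *Psmc6*, an ATPase of the proteasome, had 3.13 in a peak that began at the start shown above (chr14:45329824-45329912). *Actr8*, a subunit of the INO80 remodeller, had 4.41. On the sham side the same rule gave *Ndfip1* (3.81), an adaptor of ubiquitin ligases, *Eef1a2* (1.47), an elongation factor of neurons and muscle, *2210016L21Rik* (2.01) and *Cldn11* (1.85), a tight junction protein of myelin. These sham peaks had a log10 p of -33.8 to -81.5 with a fold enrichment under 4.

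The fold enrichment of paired start peaks was slightly lower in CCI. Over 3504 pairs in which either peak was a start peak, the log2 ratio of fold enrichment, CCI to sham, had a median of -0.10 with quartiles at -0.63 and 0.43. The CCI value was the lower one in 54.7% (53.0 to 56.3%), beside 47.8% of all 27380 pairs. The median of pairs without a start peak was 0.04, with 46.8% lower in CCI (46.2 to 47.4%). The 5′-UTR pairs farther from the start stood between them, at -0.05, with 53.4% lower (49.9 to 56.8%). This displacement was small beside the spread of the start pairs, whose middle 50% spans 1.07 on the log2 scale.

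Start peaks also spread more widely than other pairs. A CCI value at least 2-fold higher was found in 408 of the 3504 pairs (11.6%, 10.6 to 12.7%), against 8.59% of all pairs. A CCI value at least 2-fold lower was found in 462 (13.2%, 12.1 to 14.3%), against 7.25% of all pairs. The spread was wider at every strength. When all pairs were cut into 4 equal groups by mean log10 p, in the weakest group 30.7% of the start pairs and 19.7% of the other pairs differed by at least 2-fold, and in the strongest group these shares were 16.4% and 8.17%.

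The displacement moved with the borders of the peaks. The sham peak was the longer one in 49.4% of the start pairs, and there the median log2 ratio was -0.34. The CCI peak was longer in 25.3%, with a median of 0.27, and in pairs of equal length the median was 0.00. In the other pairs the sham peak was longer in 43.7%, with a median of -0.19, and the CCI peak in 32.4%, with 0.34, while pairs of equal length had 0.08. In the 762 start pairs with identical borders in both lists, the median was 0.00 and 49.7% were lower in CCI (46.2 to 53.3%). Of these 762, 91 were at least 2-fold higher in CCI (11.9%, 9.83 to 14.4%) and 54 at least 2-fold lower (7.09%, 5.47 to 9.13%), so that here the higher side was the larger one. Other pairs with identical borders had a median of 0.07 and 42.3% lower (40.8 to 43.7%), with 6.53% at least 2-fold higher and 3.66% at least 2-fold lower. The part of border length in the displacement was not tested further.

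**Figure D3:**
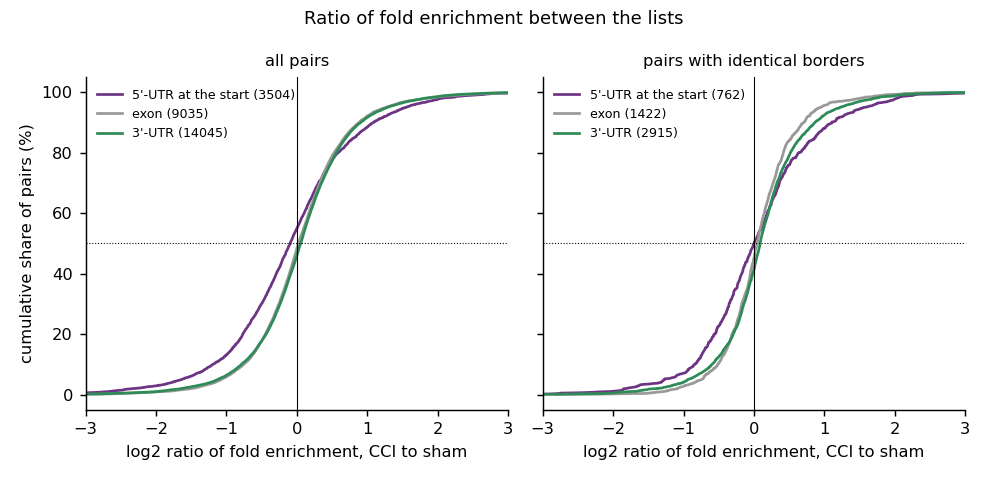
Cumulative share of pairs (%) by the log2 ratio of fold enrichment (CCI to sham), for all pairs and for pairs with identical borders, with the number of pairs in the legend. The curve of the start peaks crosses 50% at -0.10 over all pairs and at 0.00 with identical borders, and it rises less steeply than those of exon and 3′-UTR peaks.

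The 8 pairs with the lowest CCI to sham ratio, among the same 1631 pairs, were led by *Junos*, an antisense transcript of *Jun*. The sham peak, at 365, covered 2086 bp, and its best CCI partner of 1044 bp had 3.65. Another CCI peak over the same sham peak had 181, and the blocks also lay over *Jun*, a transcription factor of the response to nerve injury. *Khdrbs3*, an RNA-binding protein of the STAR family, had 2.37 in CCI and 45.3 in sham, and a further CCI peak over the sham peak had 16.7. The ratios of these pairs thus depend on which of several CCI peaks is taken. No block of the paired *Khdrbs3* peaks held the annotated start.

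*Sdc3*, the heparan sulphate proteoglycan syndecan-3, had 15.5 in CCI and 136 in sham, both from the start shown above, over 181 and 241 bp. *Hp1bp3*, a heterochromatin protein, had 2.93 and 24.4. *Camk2a*, the alpha subunit of calcium/calmodulin-dependent kinase II, had 2.74 and 22.1. *Bcor*, a corepressor, had 10.8 and 79.0 over the same 301 bp. Blocks of the *Camk2a* and *Bcor* peaks held the annotated start, but the 5′ ends of the peaks lay far from it. They were at -4904 (CCI) and -5302 (sham) bases for *Camk2a* and -47681 for *Bcor*, where minus is upstream. *Tma7*, a small protein of the translation machinery, had 37.4 and 257, and *Ep300*, a histone acetyltransferase, had 20.3 and 123. A second start pair of *Ep300* had 29.2 and 52.3. The log10 p was -38.1 in CCI and -35.0 in sham for *Hp1bp3* and -34.7 and -40.0 for *Ep300*, but farther apart for *Sdc3*, at -25.2 and -52.5.

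The 8 pairs with the highest ratio were led by *Mapk9*, the stress kinase JNK2, with 39.1 in CCI and 3.00 in sham from the start shown above (180 and 210 bp). *Atf5*, a transcription factor of stress responses, had 131 and 13.4 over the same 241 bp, but no block of this peak held the annotated start, and its blocks also lay over *Nup62* and *Il4i1b*. Other CCI peaks over the same sham peak had 21.4 and 252, so the ratio of *Atf5* depends on which peak is taken. *Csk*, which phosphorylates and restrains Src kinases, had 117 and 13.8 over the same 359 bp. *Ahcyl2*, a relative of adenosylhomocysteinase, had 41.7 and 5.04 over the same 510 bp. *Nsf*, the ATPase that takes SNARE complexes apart, had 79.7 and 11.2 over the same 61 bp. A block of this peak held the annotated start, but its 5′ end lay at -15780 bases from it (minus is upstream).

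*Smarcd3*, a subunit of the BAF remodeller, had 157 in CCI and 22.8 in sham. Its blocks held the annotated start, with the 5′ ends of the peaks at -20584 (CCI) and -20554 (sham) bases from it. *Nme1*, a nucleoside diphosphate kinase, had 36.0 and 5.57, but another CCI peak over the same sham peak had 5.30, so its ratio too depends on which peak is taken. *Limk1*, the kinase of cofilin, had 46.9 and 7.30. No block of the *Limk1* peaks held the annotated start, and they began 30 bases downstream of it, while the *Nme1* peaks began at -2210 bases. The log10 p did not always follow the ratio in these pairs. It was -38.8 in CCI and -36.2 in sham for *Csk* and -16.6 and -16.2 for *Limk1*, but -19.0 and -36.4 for *Ahcyl2* and -25.6 and -33.9 for *Mapk9*, smaller in the sham list although the fold enrichment there was lower. Among peaks that were not start peaks, the highest fold enrichment was 7.82 in CCI and 6.49 in sham for *Csk*. It was 2.66 and 3.42 for *Nsf*, and *Ahcyl2* had no such peak in sham.

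**Figure D4:**
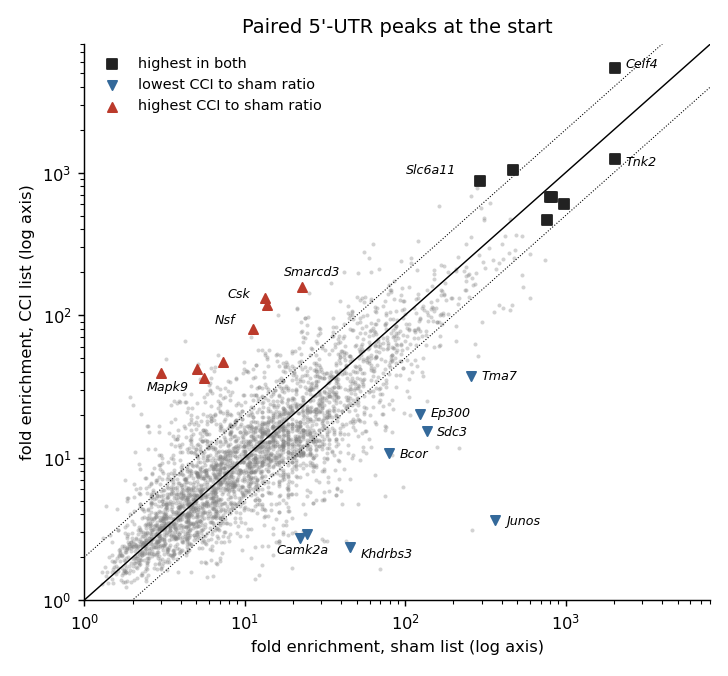
Fold enrichment of the 3504 paired start peaks in the sham list (x) and the CCI list (y), both on log axes, with the line of equality and dotted lines at a 2-fold difference. Squares mark the 8 most enriched pairs and triangles the 8 pairs with the lowest and the 8 with the highest ratio, which stand away from the diagonal by construction.

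The same ranking was repeated over the 444 of these pairs whose borders were identical and whose block held the start, a set chosen after the values were seen. The lowest ratios after *Bcor* were in *Clcn2*, a chloride channel (7.08 in CCI and 38.7 in sham), *Sh3glb2*, an endophilin (26.6 and 105), *Xkr4* (15.3 and 56.9) and *Omg*, the oligodendrocyte myelin glycoprotein (17.9 and 65.1). *Omg* lies within *Nf1*, which the block also covered. *Shisa7*, an auxiliary subunit of GABA-A receptors, had 12.2 and 44.2 in the 240 bp from its start, and *Nlgn2*, the neuroligin of inhibitory synapses, had 157 and 546. The 5′ end of the *Nlgn2* peak lay at -2935 bases from its annotated start.

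On the other side, the highest ratios after *Csk*, *Ahcyl2* and *Nsf* were in *Slc6a8*, the creatine transporter (318 in CCI and 63.1 in sham), *Wdr13* (167 and 34.6) and *Cacng8*, an auxiliary subunit of AMPA receptors (200 and 41.8). *Hnrnpd*, an RNA-binding protein of AU-rich elements, had 28.6 and 6.23 in the 150 bp from the start shown above. Its other paired start peaks had 17.7 in CCI and 24.3 in sham, and 226 and 167. A second start pair of *Atf5*, from the start shown above, had 252 and 59.3 over 923 bp and overlapped the pair at 131 and 13.4. A further *Atf5* start pair had 21.4 and 13.9.

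Start peaks were counted in 11 lists of genes, as a share of the genes of the list that had any peak. Over all genes with a peak, 26.4% in CCI and 28.8% in sham had a start peak. Cytosolic ribosomal proteins had the lowest share, 3 of 35 genes in CCI (8.57%, 2.96 to 22.4%) and 3 of 40 in sham (7.50%, 2.58 to 19.9%). Among them were *Rpl13a* (13.6 in CCI and 27.9 in sham) and *Fau* (4.00 and 3.25), which encodes a ribosomal protein fused to a ubiquitin-like protein. These genes have many processed copies in the genome, and how reads shared with copies were counted is not stated.

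Translation factors had a start peak in 20 of 48 genes in CCI (41.7%, 28.8 to 55.7%) and 22 of 51 in sham (43.1%, 30.5 to 56.7%). In their 20 pairs the median log2 ratio was 0.06, 10 were lower in CCI, and 2 in each direction differed by at least 2-fold. Over all start pairs 54.7% were lower, 11.6% at least 2-fold higher and 13.2% at least 2-fold lower. Over all pairs these shares were 47.8%, 8.59% and 7.25%. *Eif1*, a factor of start codon choice, had 366 in CCI and 488 in sham. *Eif4g2*, known for cap-independent translation, had 39.1 and 32.8 over the same bases. *Eif4g1* had 3 paired start peaks with unlike ratios, at 12.2 and 17.3, at 3.51 and 2.83, and at 14.1 and 3.85. *Eif4e2*, a cap-binding relative of eIF4E, had 40.1 and 34.6 at the A start shown above.

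Splicing factors had a start peak in 37.2% of 43 genes in CCI and 47.6% of 42 in sham (33.4 to 62.3%), and proteasome genes in 30.0% of 30 and 29.0% of 31. *Hnrnpa0* had 70.2 in CCI and 83.7 in sham, of which only the sham peak was a start peak, and *Hnrnpm* 11.7 and 11.3. *Psmd2*, a non-ATPase subunit of the proteasome, had 17.5 and 21.3, and *Psmd4*, a receptor for ubiquitin chains, had 20.8 and 20.1. Median log2 ratios were 0.00 over 19 splicing factor pairs and -0.12 over 8 proteasome pairs.

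Nuclear genes of oxidative phosphorylation had a start peak in 14 of 49 genes in CCI (28.6%) and 19 of 52 in sham (36.5%). Their peaks were weak, with a median fold enrichment of 5.29 and 4.18. *Cox6b1* had 1.55 in CCI and 1.79 in sham, *Ndufa12* 1.68 and 1.73, and *Ndufc2* 1.60 and 1.79. *Atp5g3*, a subunit of the ATP synthase, had 17.7 and 14.0, and *Ndufa8* 150 and 81.3. In 10 of 15 pairs the CCI value was the lower one, with a median log2 ratio of -0.21 and values from -1.47 to 2.75, beside 54.7% lower among all start pairs and 47.8% among all pairs.

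**Figure D5:**
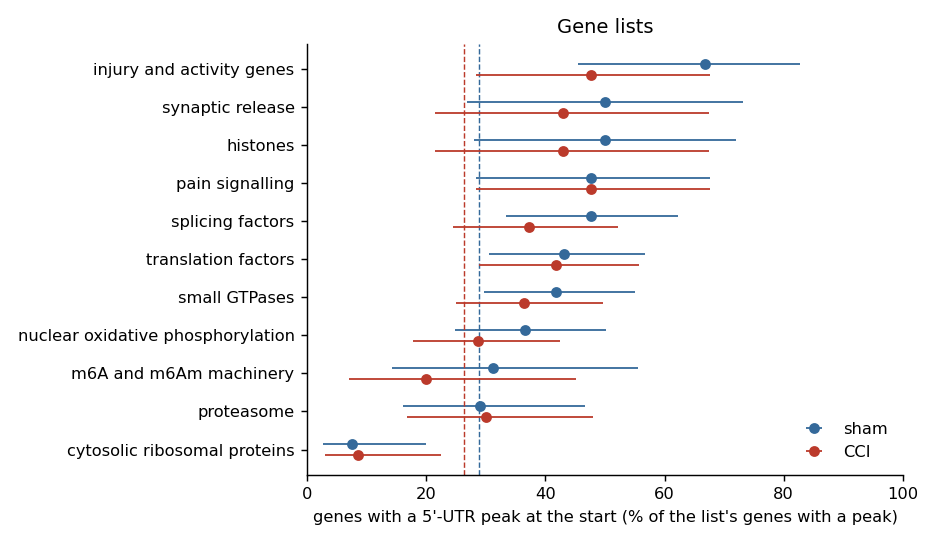
Share of the genes with a peak that had a start peak (%), by gene list, in the sham and CCI lists, with 95% Wilson intervals and dashed lines at the shares over all genes (28.8% sham, 26.4% CCI). Cytosolic ribosomal proteins lie below the dashed lines, at 7.50% and 8.57%, and injury and activity genes have the highest sham share, 66.7%.

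Genes of injury and neuronal activity had a start peak in 10 of 21 genes in CCI (47.6%, 28.3 to 67.6%) and 14 of 21 in sham (66.7%, 45.4 to 82.8%). *Gap43*, a protein of growing axons, had 360 in CCI and 419 in sham. *Vgf*, a precursor of neuropeptides, had 24.2 and 18.3. *Nr4a1*, an immediate early transcription factor, had 19.0 and 6.14, and *Gadd45a*, a stress gene, had 34.9 and 16.3. *Junb* had 9.68 and 17.1, of which only the sham peak was a start peak, and *Jund* 81.3 and 63.1. *Penk*, the enkephalin precursor, had start peaks only in the sham list, at 3.66 and 2.91. No block of the peak at 3.66 held the annotated start, and its 5′ end lay at -48725 bases from it. Over the 12 pairs of the list the median log2 ratio was -0.23, with 2 at least 2-fold higher and 0 at least 2-fold lower in CCI. These shares were 11.6% and 13.2% over all start pairs and 8.59% and 7.25% over all pairs, so counts in 12 pairs say little.

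Pain signalling genes had a start peak in 10 of 21 genes in each list (47.6%, 28.3 to 67.6%). *Slc12a5*, the neuronal chloride exporter KCC2, had 36.5 in CCI and 16.8 in sham. *Prkca*, a protein kinase C, had 55.7 and 39.9, *Camk2b* 90.7 and 122, and *Mapk3*, which encodes ERK1, 71.9 and 128. *Gabbr1*, a subunit of the GABA-B receptor, had start peaks of 13.5 and 12.6 and of 15.1 and 27.0. *Gria1* and *Gria2*, subunits of AMPA receptors, had 5.98 and 9.09, and 4.65 and 4.09. In 5 of 10 pairs the CCI value was the lower one, with a median log2 ratio of -0.16, beside 54.7% lower among all start pairs and 47.8% among all pairs.

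Genes of synaptic release had a start peak in 6 of 14 genes in CCI (42.9%) and 7 of 14 in sham (50.0%). *Cplx1*, which clamps SNARE complexes, had 22.9 in CCI and 24.3 in sham, of which again only the sham peak was a start peak. *Syn1*, a phosphoprotein of synaptic vesicles, had 59.3 and 69.8 over the same bases at the A start shown above, *Sv2a* 29.2 and 31.1, and *Vamp2* 13.1 and 8.77. In 5 of 6 pairs the CCI value was the lower one, and none differed by 2-fold (median log2 ratio -0.11, from -0.45 to 0.58). With 6 pairs, these counts say little beside the 54.7% of all start pairs and 47.8% of all pairs that were lower. Of all start pairs, 11.6% were at least 2-fold higher and 13.2% at least 2-fold lower, against 8.59% and 7.25% of all pairs.

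Small GTPases had a start peak in 20 of 55 genes in CCI (36.4%) and 23 of 55 in sham (41.8%). *Arf6*, a GTPase of membrane traffic, had 9.38 in CCI and 9.76 in sham at its start. A longer sham start peak of *Arf6*, at 82.5, was paired with a CCI peak that was not a start peak by the rule, at 10.5. They shared 47.8% of their bases. *Rac1*, a GTPase of the actin skeleton, had 46.9 and 9.88. *Rab5a*, of early endosomes, had 23.7 and 21.2 over the same bases. Over the 22 pairs the median log2 ratio was 0.29. Histones had a start peak in 6 of 14 genes in CCI and 8 of 16 in sham, and the near-identical histone genes leave single members uncertain.

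Of the m6A and m6Am machinery, 3 of 15 genes in CCI (20.0%) and 5 of 16 in sham (31.2%) had a start peak. *Pcif1*, the m6Am methyltransferase itself, had 2.51 in CCI and 3.17 in sham. *Rbm15*, which recruits the m6A writer, had 8.69 and 15.1. *Ythdf1*, a cytoplasmic reader, had 12.8 in the sham list only. The log10 p of this peak was -2.85, weaker than the median of -4.21 for sham start peaks without a partner. The 3 pairs of this list had log2 ratios from -0.80 to -0.20, in a class in which 54.7% of all pairs were lower in CCI.

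Markers of the tissue were checked in both lists. Of 6 neuronal markers 5 had a peak (not *Nefl*), as did all 6 oligodendrocyte, 5 astrocyte and 5 microglia markers, and 4 of 5 Hox genes of the thoracic and lumbar cord. No peak was listed for the skeletal muscle markers *Ckm*, *Acta1* and *Myh4*, while 2 of 3 Schwann cell markers had one (not *Pmp22*). Start peaks were found for 5 of the 6 oligodendrocyte markers, *Mbp*, *Cnp* and *Mag* among them, and for *Gfap*, *Aqp4*, *Slc1a2* and *Slc1a3* of astrocytes, but among the microglia markers only for *C1qa* and among the neuronal ones only for *Rbfox3*, in both lists alike.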

How the data were processed

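Libraries were 1 IP and 1 input each for CCI and sham spinal cord. The labels name 50 μg of total RNA and 150 bp reads, and the paper's methods name other amounts and lengths. The submitters' processing notes name fastp, HISAT2, HOMER, ChIPseeker and GRCm38, while the paper names Cutadapt, bowtie and MACS2, and the columns are named as in exomePeak. Fold enrichment is the authors' ratio of IP over input in the deposited peak lists. The deposited log10 p-value and log10 false discovery rate were used as a score of strength, since some are listed as minus infinity (CCI: *Syn1*, *6030419C18Rik*). The deposited table of differential peaks holds the authors' own fold changes and p-values of CCI against sham and was not used. Its values are not given here.

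Start peaks were taken by the deposited annotation and distance (at most 300). Partners shared at least 1 bp of exonic blocks, and a pair was formed where each peak had its highest shared fraction of bases with the other. The tables give only the strand of the assigned gene, so partners were formed without regard to strand, and the same assigned strand, which had been intended, was run as an alternative. Named genes were, among pairs of 2 start peaks at or below the median log10 p of both lists, the 8 with the highest geometric mean and the 8 with the highest and lowest ratio, and the 4 start peaks without a partner with the smallest log10 p in each list. For the 11 gene lists, genes with small log10 p in sham were given as examples, with others chosen after their values were seen. Members, lists and alternatives were chosen with earlier results of these data known. Shares have 95% Wilson intervals. Sequences were matched to RefSeq (GRCm38.p6) by symbol, chromosome and strand, at the start nearest to the annotated one. Overlap and pairing were tested on simulated lists. The tools were pandas 2.3.3 and numpy 2.4.6 under Python 3.11.15, with scipy 1.17.1 for intervals of medians and matplotlib 3.10.9 for plots. Some genes of the lists are not reported by name here.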

Additional observations from a re-analysis of the deposited data

How the results depend on the processing

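No paired analysis was possible because with 1 library of each kind in a group there are no pairs of samples to block on. Alternatives gave 76 values. Of these, 56 stayed inside the interval from counting or within 1.5 times the count, and 18 moved further. The other 2, both with identical borders, went to about no difference. The 20 values with the same strand, identical borders, a start inside a block, the outer RefSeq start and an exact RefSeq start were chosen after seeing the data. With identical borders, the median log2 ratio went from -0.10 to 0.00 (-0.06 to 0.07) and the share lower in CCI from 54.7% to 49.7%, while the share at least 2-fold lower went from 13.2% to 7.09% and the share at least 2-fold higher from 11.6% to 11.9%. In the other 8 settings the median was -0.12 to -0.07, and pairs without a start peak kept a median of 0.04 to 0.05 in the 4 settings in which they were also computed. A limit of 1.5-fold gave 20.0% of start pairs higher and 26.5% lower in CCI, against 18.8% and 16.4% of all pairs. The share of peaks at the start in CCI and sham was 12.1% and 13.5% at a minimum fold enrichment of 2, 10.4% and 11.6% with a limit of 100 bases, and 12.5% and 13.8% with 1000. The median fold enrichment was 10.4 and 10.5 with the start inside a block, and 10.1 and 10.5 at outer starts. An overlap of 50% of both peaks left 79.9% of the CCI and 72.3% of the sham start peaks with a partner. The first 50 bases held GGAC in 19.2% of the matched CCI members and 19.9% of the sham members, and the whole window in 72.1% of CCI members with an exact RefSeq start. The causes were not tested, except that shorter windows and stricter limits hold less by construction. The unknown depth and the different inputs limit any comparison between the lists.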
